A study of Mus musculus with 4 samples.

Results

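The insulin-like growth factor (IGF) system of AML12 cells was examined through the 7 secreted IGF binding proteins Igfbp1 to Igfbp7, the ligand Igf2 and the receptors Igf1r and Igf2r. These 10 genes were taken by symbol from a table of 31828 genes, and each was found there once. AML12 (alpha mouse liver 12) is an immortalised hepatocyte line derived from a mouse that carried a human transforming growth factor alpha transgene. RNA was measured in 2 libraries of cells replated in dishes (2D) and in 2 libraries of cells embedded in Matrigel, an extract of basement membrane (3D), so that all 4 libraries come from 1 line. Both cultures had been kept in medium with 10% fetal calf serum, 10 μg/mL insulin, transferrin, selenite and 40 ng/mL dexamethasone. Both received 1 mM hydroxyurea, which inhibits DNA replication and arrests cells at G1/S, for 24 h in 2D and 36 h in 3D, and an effect of the culture and one of the longer exposure cannot be told apart.

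Insulin-like growth factors are small hormones that drive growth and survival through Igf1r, a receptor tyrosine kinase related to the insulin receptor. Most of the IGF in blood is held by binding proteins made largely in the liver, which prolong its life and keep it from the receptor until they are cleaved or released. Igf2r, the cation-independent mannose 6-phosphate receptor, carries no kinase. It takes up Igf2 for degradation and also sorts lysosomal enzymes. In the adult liver hepatocytes are the main source of circulating Igf1, and their Igfbp1 is raised in fasting and lowered by insulin.

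Levels are in TPM, a transcript abundance that is corrected for length and scaled to a common total, so that genes can be compared within a library. This unit does not keep the sequencing depth. Between 13891 and 14256 genes reached 1 TPM in a library. Of the 9 hepatocyte markers examined, 5 were at 1 TPM or more in every library, and the summed level of all 9 was 108 and 109 TPM in the 2D-cultured cells against 373 and 352 TPM in the 3D-cultured cells. Albumin (Alb) stood at only 0.819 to 12.7 TPM, and Cps1, Serpina1a and Tat were under 1 TPM throughout, while biliary genes were abundant. The 5 cholangiocyte and progenitor markers summed to 2401 and 2294 TPM in 2D and to 2269 and 2357 TPM in 3D, but single markers moved in opposite directions. The keratins Krt19 and Krt7 fell (log2 fold changes -0.49 and -0.65), from 1728 and 1647 TPM to 1174 and 1226 TPM and from 492 TPM in both 2D libraries to 307 and 320 TPM. Spp1 rose from 166 and 138 TPM to 764 and 786 TPM and Sox9 from 15.2 and 16.5 TPM to 24.2 and 25.4 TPM (log2 fold changes 2.35 and 0.62, adjusted p = 0.000317 and 0.00317, limma). Epcam was under 1 TPM. All 5 endothelial markers were under 1 TPM in every library. So were 5 of the 6 stellate cell and fibroblast markers found in the table and 4 of the 5 macrophage and leukocyte markers. The fibroblast sum was 35 and 37.6 TPM in 2D and 19.9 and 18.8 TPM in 3D, nearly all of it desmin (Des), and that of the macrophage markers was 19.5 and 18.6 TPM against 26.4 and 22.2 TPM, nearly all of it Cd68. Their part in the results was not tested. In bulk RNA a change in the number of cells of a kind and a change in RNA per cell cannot be told apart.

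Of the 10 genes, 6 were expressed at a mean of at least 1 TPM over the 4 libraries and were tested, namely Igfbp3, Igfbp4, Igfbp6, Igfbp7, Igf1r and Igf2r. The other 4 genes, Igfbp1, Igfbp2, Igfbp5 and Igf2, were below that level. The means nearest to it were 2.12 TPM (Igfbp6) and 0.383 TPM (Igf2). Igfbp4, Igfbp6, Igfbp7 and Igf2r rose and Igf1r fell in the 3D-cultured cells, while Igfbp3 did not pass the test. Thus 5 of the 6 tested genes had an adjusted p-value under 0.05 (limma, Benjamini-Hochberg), 4 of them higher and 1 lower in 3D. Igfbp6 is in this and the following counts, although it passed the filter only through its level in 3D. That by itself favours a difference. The background is high in this comparison, since 50.5% of all 14116 tested genes passed (23.4% higher and 27.1% lower). The libraries of the cultures did not overlap for any of the 6, and they did not overlap for 77.5% of all tested genes. A change of more than 1 on the log2 scale, which 8.2% of all tested genes showed together with an adjusted p-value under 0.05, was reached by Igfbp4 and Igfbp6. The median log2 fold change of all tested genes was -0.04.

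**Figure D1:**
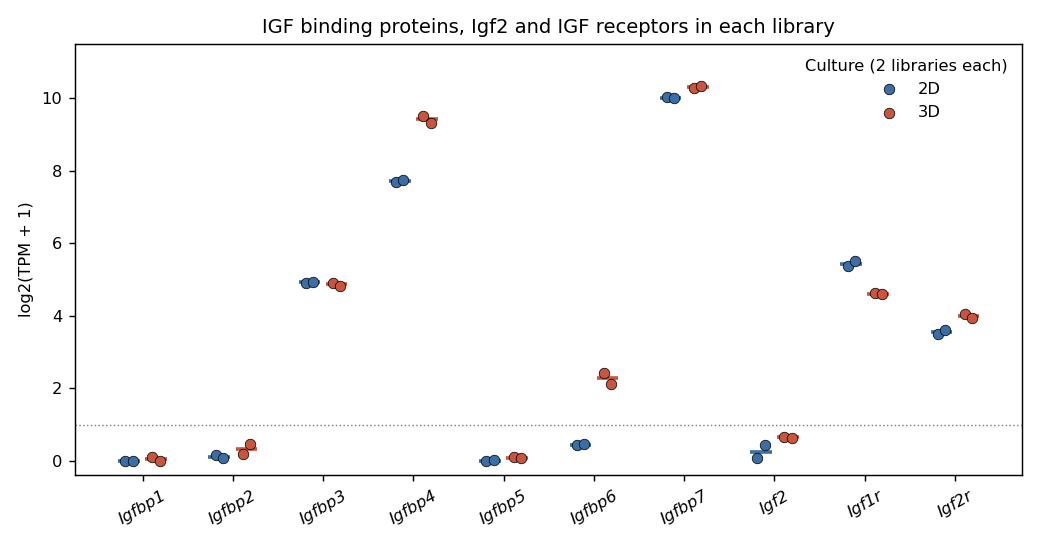
The level of each gene in each library as log2(TPM + 1), with points for the libraries (2 per culture), short bars for the mean of a culture and a dotted line at 1 TPM. Igfbp7 and Igfbp4 are the highest genes in all 4 libraries, Igfbp1, Igfbp2, Igfbp5 and Igf2 lie below the line in all 4, and Igfbp6 crosses it only in the 3D-cultured cells.

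The order of the levels was similar in both cultures. In 2D it ran from Igfbp7 (1036 ± 17.4 TPM) over Igfbp4 (211 ± 4.77), Igf1r (42.3 ± 3.06), Igfbp3 (29.4 ± 0.443) and Igf2r (10.7 ± 0.802) to Igfbp6 (0.361 ± 0.0163; SD, n = 2 each). Each of these stood apart from the next by more than the range of its libraries. In 3D it ran from Igfbp7 (1265 ± 39.8 TPM) over Igfbp4 (685 ± 65.6), Igfbp3 (28.1 ± 1.22), Igf1r (23.5 ± 0.307) and Igf2r (15 ± 0.720) to Igfbp6 (3.88 ± 0.748; SD, n = 2 each), again with no overlap between neighbours. Igf1r and Igfbp3 therefore changed places. Igfbp6, Igf2 and Igfbp2 overlapped with the next of them in 2D, and Igfbp5 overlapped with Igfbp1 in both cultures.

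Among the binding proteins, Igfbp4 showed the largest change in TPM. Igfbp4 (ENSMUSG00000017493, chromosome 11, bases 99041244 to 99054392, GRCm38, forward strand) binds both IGFs and mostly inhibits them until pappalysin proteases cleave it. It stood at 207 and 214 TPM in the 2D libraries and at 731 and 639 TPM in the 3D libraries. Both 3D libraries were thus far above both 2D libraries, and the distance between the 3D libraries was small beside that gap. The mean was 3.25-fold higher in 3D, and the log2 fold change was 1.69 (± 0.07 SE, adjusted p = 0.000353, limma). Only 178 of the 14116 tested genes (1.26%) had a higher log2 fold change.

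The 250 bases before the RefSeq start of Igfbp4 (GRCm38.p6, chr11:99040994-99041243, forward strand) are shown because it is the more abundant of the 2 genes that rose by more than 1. Capitals mark a TATAAA motif whose first base lies 28 bases before the start. Such a motif, on either strand, was found in 12.4% of 32851 RefSeq promoter windows of this length.

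Igfbp4: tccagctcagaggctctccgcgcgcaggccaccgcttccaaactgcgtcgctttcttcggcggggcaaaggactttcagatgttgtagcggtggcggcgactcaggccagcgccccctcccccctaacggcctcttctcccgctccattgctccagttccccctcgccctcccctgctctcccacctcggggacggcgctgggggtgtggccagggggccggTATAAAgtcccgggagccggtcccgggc

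Igfbp6 (ENSMUSG00000023046, chromosome 15, bases 102144362 to 102149511, forward strand), a binding protein that prefers Igf2 over Igf1, rose from a low level. Its level was 0.349 and 0.372 TPM in 2D and 4.41 and 3.35 TPM in 3D. Both 3D libraries were well above 1 TPM and both 2D libraries below it. The mean was 10.8-fold higher in 3D, while the log2 fold change of TPM + 1 was 1.83 (± 0.16 SE, adjusted p = 0.00137, limma). The added 1 compresses changes at such levels, so that the log2 fold change was 3.10 with 0.1 added and 0.73 with 5 added, past the threshold in each case. Whether Igfbp6 or Igfbp4 changed more on this scale depends on that choice, as Igfbp4 was at 1.70 and 1.68 with the same additions, and with 1 added their 95% intervals overlapped (1.42 to 2.25 and 1.5 to 1.89). Igfbp6 passed the filter on low values only through its level in 3D, which by itself favours a difference.

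The corresponding window of Igfbp6 (GRCm38.p6, chr15:102143936-102144185, forward strand) is given for comparison with that of Igfbp4. RefSeq places the start 176 bases upstream of the gene start in the table. Its GC content is 49.6%, against 69.2% for Igfbp4 and a median of 52.4% over all windows. Capitals mark a TATAAA motif on the opposite strand, 148 bases before the start and therefore at another place than in Igfbp4.

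Igfbp6: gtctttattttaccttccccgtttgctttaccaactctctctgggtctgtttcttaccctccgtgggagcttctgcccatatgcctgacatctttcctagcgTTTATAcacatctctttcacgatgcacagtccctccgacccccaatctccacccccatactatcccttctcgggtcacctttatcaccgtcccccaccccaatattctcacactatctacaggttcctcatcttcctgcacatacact

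Igfbp7 (ENSMUSG00000036256, chromosome 5, bases 77349240 to 77408041, reverse strand) is a distant relative of the other binding proteins with low affinity for IGFs, and it also binds insulin and matrix proteins. It was the highest of the 10 genes, at 1048 and 1024 TPM in 2D and 1237 and 1293 TPM in 3D. The 3D libraries were above the 2D libraries by more than either pair differed. The increase was nevertheless small, with a log2 fold change of 0.29 (± 0.04 SE, adjusted p = 0.00431, limma), and 52.4% of all tested genes had a larger absolute change. Igfbp7 is also abundant in endothelial cells, whose 5 markers summed to 0.878 and 1.54 TPM in 2D and to 1.64 and 2.13 TPM in 3D. A part of such cells in the level of Igfbp7 was not tested. The 3′ end of Igfbp7 overlaps Polr2b on the other strand, and the authors aligned reads by strand. How reads divided between these genes was not tested.

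Igfbp3 (ENSMUSG00000020427, chromosome 11, bases 7206086 to 7213923, reverse strand), the principal IGF carrier in blood, stayed near 29 TPM. It stood at 29.1 and 29.7 TPM in 2D and at 29 and 27.3 TPM in 3D. The 2D libraries were the higher ones, by less than the 3D libraries differed from each other. The log2 fold change of -0.06 (± 0.06 SE, adjusted p = 0.441, limma) had a 95% interval from -0.23 to 0.10.

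The other binding proteins were under 1 TPM in every library. Igfbp1 (ENSMUSG00000020429), the insulin-regulated binding protein of hepatocytes, was listed at 0 in both 2D libraries and in 3D replicate 2, and at 0.0796 TPM in 3D replicate 1. Igfbp2 (ENSMUSG00000039323), which is abundant in fetal liver, lay between 0.0458 and 0.142 TPM except in 3D replicate 2, where it reached 0.390 TPM. Igfbp5 (ENSMUSG00000026185), a matrix-bound form, was listed at 0 and 0.01 TPM in 2D and at 0.0704 and 0.0517 TPM in 3D. The 3D libraries were the higher ones for Igfbp2 and Igfbp5, but all values were far below 1 TPM. When the fit was repeated with no filter on low values, the limma adjusted p-values of Igfbp1, Igfbp2 and Igfbp5 were 0.466, 0.324 and 0.165.

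Igfbp1 and Igfbp3 are neighbours that end towards each other on chromosome 11 with 3539 bases between them, yet 1 was at or near 0 and the other at about 29 TPM in every library. Igfbp2 and Igfbp5 lie in the same arrangement on chromosome 1 with 5457 bases between them, and both were near 0. The window before the start of Igfbp1 (GRCm38.p6, chr11:7197537-7197786, forward strand) is shown because it holds motifs of factors that insulin and the hepatocyte programme act through. Capitals mark a FOXO-type CAAAACA, 108 bases before the start. They also mark a match to GTTAATNAT, only a part of the HNF1 motif, on the opposite strand, 59 bases before the start. These motifs, searched on both strands, were found in 5.56% and 0.737% of all windows. Among the 14 windows of the 10 genes, only that of Igfbp1 held either.

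Igfbp1: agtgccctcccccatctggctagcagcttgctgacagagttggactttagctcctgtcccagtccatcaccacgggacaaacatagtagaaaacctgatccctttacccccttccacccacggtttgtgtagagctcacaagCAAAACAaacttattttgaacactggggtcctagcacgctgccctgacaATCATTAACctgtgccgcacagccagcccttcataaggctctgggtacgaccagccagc

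Igfbp7 and Igfbp4 made up nearly all binding protein RNA. The summed TPM of Igfbp1 to Igfbp7 was 1285 and 1268 in 2D and 2002 and 1963 in 3D. Igfbp7 took 81.6% and 80.7% of it in 2D but 61.8% and 65.9% in 3D. The share of Igfbp4 was 16.1% and 16.9% in 2D and 36.5% and 32.5% in 3D. Both 3D libraries thus had more Igfbp4 and less Igfbp7 in proportion than either 2D library. Igfbp3 made up 2.26% and 2.34% in 2D and 1.45% and 1.39% in 3D, and its share was lower although its TPM hardly differed. Without Igfbp7, which binds IGFs weakly, Igfbp4 made up 87.6 ± 0.0934% of the sum in 2D and 95.5 ± 0.166% in 3D (SD, n = 2 each). Igfbp4 outnumbered Igfbp3 by 7.12 and 7.2 to 1 in 2D and by 25.2 and 23.4 to 1 in 3D. These shares and ratios were not tested.

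**Figure D2:**
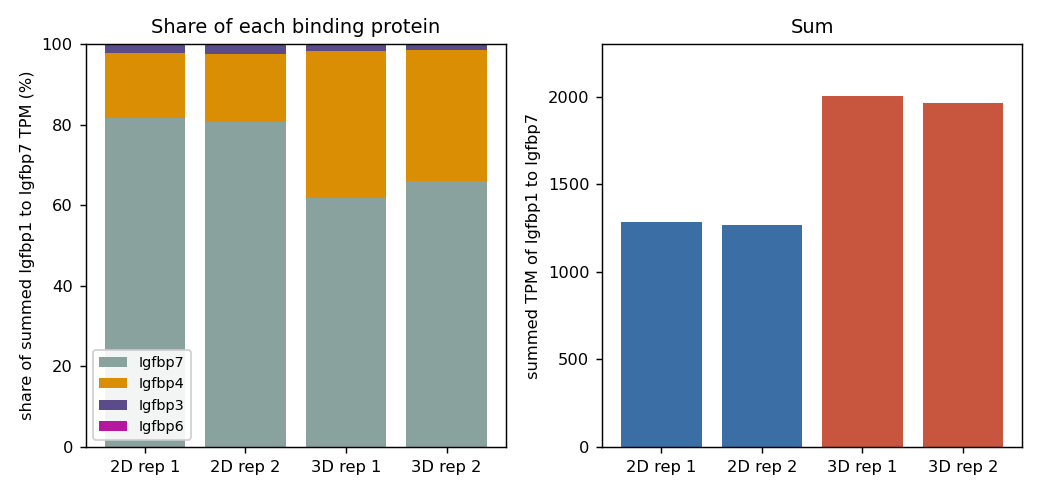
Left, the share (%) of each binding protein in the summed TPM of Igfbp1 to Igfbp7, with 1 stacked bar per library, where Igfbp6 (at most 0.22%) is too thin to see and Igfbp1, Igfbp2 and Igfbp5 are not drawn. Right, the sum in TPM. Igfbp4 covers 16.1% and 16.9% of the 2D bars and 36.5% and 32.5% of the 3D bars.

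The ligands were barely detected. Igf2 (ENSMUSG00000048583, chromosome 7, bases 142650766 to 142666816, reverse strand), the fetal growth factor that is expressed from the paternal allele, was at 0.0510 and 0.353 TPM in 2D and at 0.586 and 0.541 TPM in 3D. All 4 values were under 1 TPM, and the 2D libraries differed from each other by more than the higher of them differed from 3D. With no filter on low values its limma adjusted p-value was 0.187. Gm49394, which overlaps Igf2 on the same strand, was at 0.393 and 0 TPM in 2D and at 0.0128 and 0.0131 TPM in 3D. How reads divided between these genes was not tested. Igf1, the main hepatic growth factor, lay between 0.0176 and 0.0444 TPM. Insulin genes were not among the genes of the table.

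Of the receptors, Igf1r fell and Igf2r rose. Igf1r (ENSMUSG00000005533, chromosome 7, bases 67952827 to 68233668, forward strand) stood at 40.2 and 44.5 TPM in 2D and at 23.7 and 23.3 TPM in 3D. Every 3D library was below every 2D library, and the mean was 1.8-fold higher in 2D. The log2 fold change was -0.82 (± 0.07 SE, adjusted p = 0.00143, limma), and 6.48% of tested genes had a lower one.

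The window before the RefSeq start of Igf1r (GRCm38.p6, chr7:67952007-67952256, forward strand) is shown as that of the only gene of the 10 that fell. It lies upstream of the gene start of the table, which is 570 bases further on. It has a GC content of 77.6% and 42 CpG dinucleotides, against a median of 6 over all windows. Capitals mark 2 copies of the GC box GGGCGG, 43 and 26 bases before the start, a motif found on either strand in 32.7% of all windows. The windows of Igfbp7 and Igf2r, which rose, held 4 and 3 copies, so the box does not set Igf1r apart.

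Igf1r: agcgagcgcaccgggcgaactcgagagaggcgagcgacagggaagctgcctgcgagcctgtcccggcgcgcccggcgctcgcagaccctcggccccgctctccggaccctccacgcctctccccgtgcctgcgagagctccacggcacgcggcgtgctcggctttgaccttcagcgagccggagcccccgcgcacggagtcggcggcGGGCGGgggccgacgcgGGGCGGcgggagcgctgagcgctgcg

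Igf2r (ENSMUSG00000023830, chromosome 17, bases 12682406 to 12769664, reverse strand) stood at 10.2 and 11.3 TPM in 2D and at 15.5 and 14.5 TPM in 3D. The 3D libraries were the higher ones without overlap. The mean was 1.40-fold higher and the log2 fold change was 0.45 (± 0.09 SE, adjusted p = 0.0138, limma). The call depended on the libraries, as the adjusted p-value was 0.0753 without 3D replicate 1, with a log2 fold change of 0.40. The insulin receptor Insr was at 13.2 and 15 TPM in 2D and at 19.7 and 16.9 TPM in 3D. Its log2 fold change of 0.35 (95% interval 0.07 to 0.64) missed the threshold narrowly (adjusted p = 0.0501, limma), and it passed in 4 of the alternatives given in the closing part. Insrr, the related orphan receptor, was under 0.05 TPM in every library.

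The balance of the receptors differed accordingly. The ratio of Igf1r to Igf2r was 3.96 and 3.94 in 2D and 1.53 and 1.60 in 3D, and that of Igf1r to Insr was 3.03 and 2.97 in 2D and 1.2 and 1.38 in 3D. The ratio of Insr to Igf2r, in contrast, lay at 1.3 and 1.33 in 2D and at 1.27 and 1.17 in 3D. Igf1r thus stayed the most abundant of the 3 in both cultures, by a smaller margin in 3D.

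**Figure D3:**
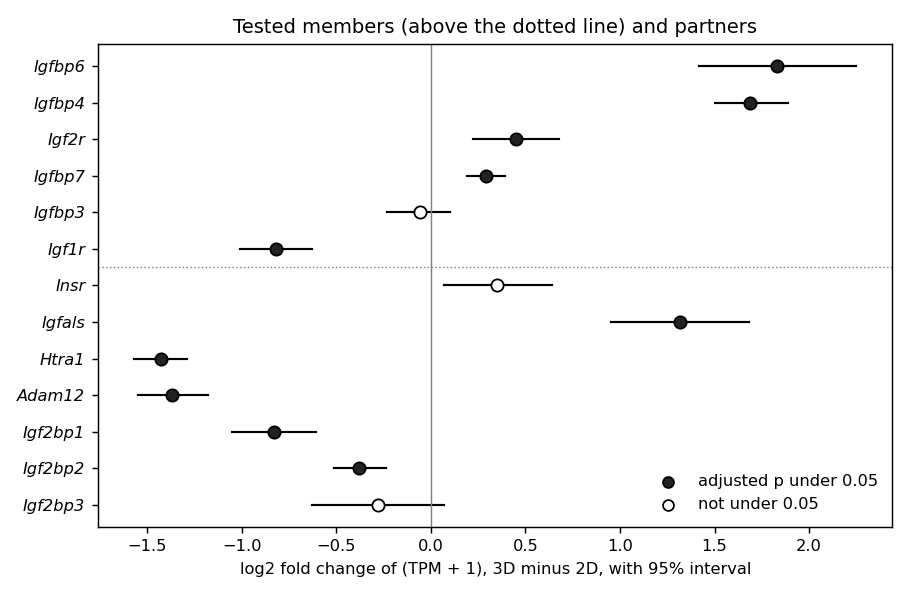
Log2 fold change of TPM + 1 (3D minus 2D) with its 95% interval from limma, for the 6 tested genes above the dotted line and for Insr, Igfals, Htra1, Adam12 and the Igf2bp genes below it. Filled points have an adjusted p-value under 0.05. Igfbp6 and Igfbp4 lie near 1.8 and 1.7 with overlapping intervals, the interval of Igfbp3 spans 0, and Igf1r lies at -0.82.

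**Figure D4:**
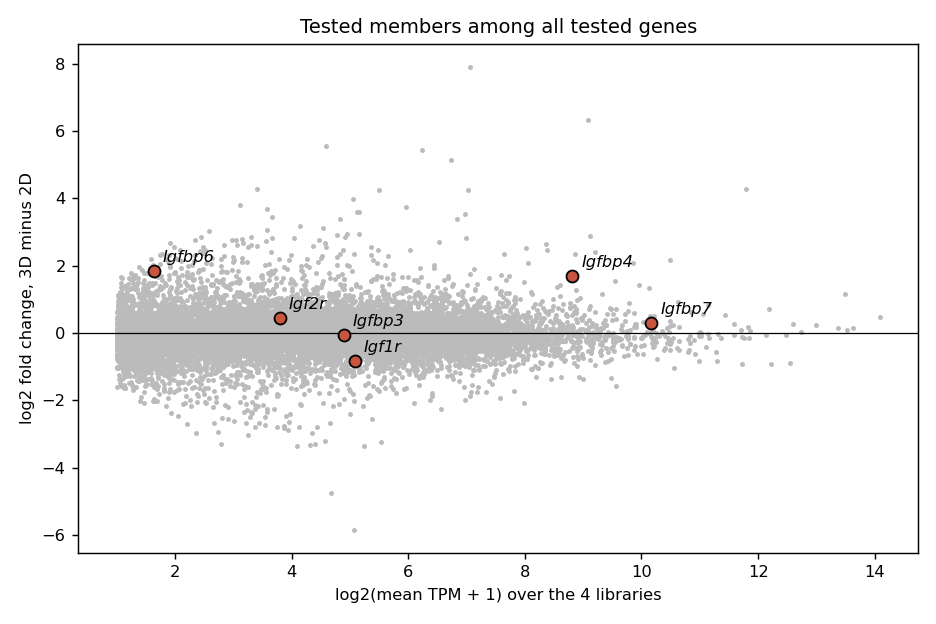
The 6 tested genes among all 14116 tested genes (grey), with log2(mean TPM + 1) on the horizontal axis and the log2 fold change (3D minus 2D) on the vertical axis. Only 1.26% of the tested genes lie higher than Igfbp4, while Igfbp7, Igf2r and Igfbp3 lie among the bulk of the genes, with log2 fold changes of 0.29, 0.45 and -0.06.

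Genes that act on the binding proteins were examined next, as a list of 9 partners, proteases and protease inhibitors. Of the 8 found in the table, 3 were expressed highly enough to be tested, and all 3 passed, 1 higher and 2 lower in 3D. Of all tested genes, 50.5% passed, 23.4% higher and 27.1% lower. Htra1, a secreted serine protease that cleaves binding proteins, fell from 65.8 and 68.9 TPM to 24.3 and 24.4 TPM (log2 fold change -1.43, ± 0.05 SE, adjusted p = 0.000282, limma). Adam12, a metalloprotease with the same kind of substrates, fell from 74.8 and 82.8 TPM to 30.8 and 29.1 TPM (log2 fold change -1.37, ± 0.07 SE, adjusted p = 0.000485, limma). These decreases were in the opposite direction to the increase of Igfbp4, and a link between them was not tested. Igfals, the acid-labile subunit that joins Igfbp3 and IGF in the ternary complex of blood, rose from 0.260 and 0.170 TPM to 1.93 and 2.13 TPM (log2 fold change 1.32, ± 0.14 SE, adjusted p = 0.00236, limma). Like Igfbp6, it passed the filter only through its level in 3D, and its log2 fold change was 2.77 with 0.1 added and 0.43 with 5 added. Pappa2, a pappalysin, was at most 0.0422 TPM, the pappalysin inhibitors Stc1 and Stc2 at most 0.336 and 0.179 TPM, Adam28 at most 0.247 TPM, and Igfbpl1 at most 0.0600 TPM. Pappa was not among the genes of the table.

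The Igf2 mRNA binding proteins, fetal RNA-binding proteins that stabilise Igf2 and other messages, were present in all libraries. Igf2bp1 fell from 36.2 and 39.9 TPM to 22 and 19.9 TPM (log2 fold change -0.83, adjusted p = 0.00212, limma), and Igf2bp2 from 74.5 and 75 TPM to 59.3 and 55.6 TPM (log2 fold change -0.38, adjusted p = 0.00528, limma). Igf2bp3 was at 4.88 and 5.37 TPM in 2D and at 3.59 and 4.53 TPM in 3D (adjusted p = 0.141, limma). Thus 2 of the 3 were lower and 0 higher in 3D, against 27.1% and 23.4% of all tested genes.

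Igf1, Igfals and Socs2 are controlled in liver by growth hormone, whose receptor Ghr signals through Jak2 and Stat5. Of the 7 tested genes of this axis, 5 were higher and 2 lower in 3D, against 23.4% and 27.1% of all tested genes. The 5 include Igfals, which was tested only because of its level in 3D. Jak2 rose from 39.6 and 42.5 TPM to 86.1 and 87.5 TPM (log2 fold change 1.06) and Socs2, a feedback inhibitor, from 34 and 37.1 TPM to 72.5 and 69.7 TPM (log2 fold change 0.98, adjusted p = 0.000494 and 0.000727, limma). Cish, another feedback inhibitor of the same pathway, went the other way, from 15.1 and 16.2 TPM to 5.04 and 4.74 TPM (log2 fold change -1.50, adjusted p = 0.00055, limma). Ghr itself was lower by 0.32 on the log2 scale, from 9.16 and 8.89 TPM to 7.11 and 6.98 TPM (adjusted p = 0.0281, limma).

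In the list of insulin and IGF receptor signalling, 29 of 31 genes were tested, 7 were higher, 3 lower and 19 not past the threshold, and the median log2 fold change was 0.04. The share of higher genes was thus near the 23.4% of all tested genes, of which 27.1% were lower. The kinases Akt1 and Akt2 and the adaptor Irs2 were among those 19, Akt1 at 223 and 235 TPM in 2D and 223 and 227 TPM in 3D, and Irs2 at 74.9 and 79.5 TPM and 76.5 and 73.6 TPM. Of those that passed, Pik3r2, a regulatory subunit of phosphoinositide 3-kinase, rose from 45.5 and 45 TPM to 84 and 78.1 TPM (log2 fold change 0.83, adjusted p = 0.000797, limma). Irs1, the other main adaptor, rose from 1.00 and 1.01 TPM to 2.26 and 2.20 TPM (log2 fold change 0.69, adjusted p = 0.00955, limma). The log2 fold change of Irs1 was 1.07 with 0.1 added to the TPM and 0.27 with 5 added. Pik3cb, a catalytic subunit, fell from 41 and 41.5 TPM to 26.8 and 28.5 TPM (log2 fold change -0.56, adjusted p = 0.00237, limma).

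Among genes that restrain these receptors, all 13 of the list were tested, 8 were higher, 1 lower and 4 not past the threshold, with a median of 0.38, where 23.4% of all tested genes were higher and 27.1% lower. Socs2, counted above with the growth hormone axis, is 1 of the 8. Pik3ip1, another of them, is counted again among the FOXO-type genes below. The list was chosen with earlier results of these data known, so its count is not an independent test. Inpp5d, a lipid phosphatase, rose from 62.8 and 66.5 TPM to 144 and 137 TPM (log2 fold change 1.11, adjusted p = 0.000442, limma). Socs3, a suppressor of cytokine and insulin signalling, rose from 11.4 and 12 TPM to 25 TPM in both 3D libraries (log2 fold change 1.04, adjusted p = 0.000702, limma). Grb10, an imprinted adaptor that binds the insulin and IGF receptors and inhibits them, rose from 7 and 6.91 TPM to 12.9 and 12.2 TPM (log2 fold change 0.77, adjusted p = 0.00222, limma). Without 3D replicate 2 the list had 5 higher and 0 lower genes.

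FOXO factors, which insulin keeps out of the nucleus, drive Igfbp1 and a set of other genes. Of the 16 genes of this list 12 were tested, of which 9 were higher and 0 lower in 3D, with a median of 0.52, beside 23.4% and 27.1% of all tested genes. The list was chosen with earlier results of these data known, so this count is not an independent test. Over the alternatives the count ranged from 6 higher genes, without 3D replicate 2, to 11. Klf15 rose from 8.31 and 8.85 TPM to 31.5 and 33.1 TPM (log2 fold change 1.8, adjusted p = 0.000317, limma) and the coactivator Ppargc1a from 2.88 and 3.35 TPM to 9.96 and 9.37 TPM (log2 fold change 1.37, or 0.85 with 5 added to the TPM, adjusted p = 0.00102, limma). Igfbp1 and the gluconeogenic genes Pck1 and G6pc, the classic hepatic targets, were under 1 TPM in all libraries and were not tested. Of the FOXO genes themselves, Foxo3 was higher by 0.51 and Foxo4 by 0.62 on the log2 scale (adjusted p = 0.00354 and 0.00489, limma). Foxo1, at 13.9 and 15.1 TPM in 2D and 12.5 and 12.6 TPM in 3D, did not pass (log2 fold change -0.19, adjusted p = 0.105, limma). Dexamethasone, which was present in both cultures, also induces Igfbp1. Of the 8 tested genes of the glucocorticoid list, 4 were higher and 1 lower, again beside 23.4% and 27.1% of all tested genes, and the median was 0.07. Sgk1, a kinase, rose from 80.1 and 83.3 TPM to 199 and 202 TPM (log2 fold change 1.28, adjusted p = 0.000241, limma). Dusp1, a phosphatase of mitogen-activated kinases and the gene of the list with the highest mean, fell from 199 TPM in both 2D libraries to 157 and 158 TPM (log2 fold change -0.34, adjusted p = 0.00252, limma). Tsc22d3, at 141 and 179 TPM in 2D and 126 and 141 TPM in 3D, did not pass (log2 fold change -0.26, adjusted p = 0.158, limma). Without 3D replicate 1 the glucocorticoid count was 2 higher and 1 lower. The summed level of the hepatocyte markers given above was higher in 3D as well, and its part in these counts was not tested. Of these markers Ttr, Alb, Hnf4a, Apob and Apoa1 passed and were higher in 3D (log2 fold changes 4.24, 2.62, 1.47, 1.33 and 1.03). Afp did not pass (log2 fold change 0.05, adjusted p = 0.682, limma). Cps1, Serpina1a and Tat were under 1 TPM and were not tested.

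Igf2r shares its sorting task with M6pr, the smaller mannose 6-phosphate receptor, and depends on enzymes that place the mannose 6-phosphate tag. In this list of 8 genes, 4 were higher and 1 lower in 3D, with a median of 0.36, while 50.5% of all tested genes passed in either direction. Igf2r itself belongs to the list and is 1 of the 4. Gnptg, a subunit of the tagging enzyme, rose from 104 and 99.6 TPM to 212 and 209 TPM (log2 fold change 1.04, adjusted p = 0.000317, limma). M6pr was lower, at 139 and 130 TPM in 2D and 120 and 117 TPM in 3D (log2 fold change -0.18, adjusted p = 0.0361, limma), the opposite direction to Igf2r. The calls of M6pr and of Gnptab, the catalytic subunit of the tagging enzyme (adjusted p = 0.049, limma), were lost in several alternatives. With no filter on low values, 3 genes of the list passed. The call of Igf2r was lost in 1 alternative, as given above.

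**Figure D5:**
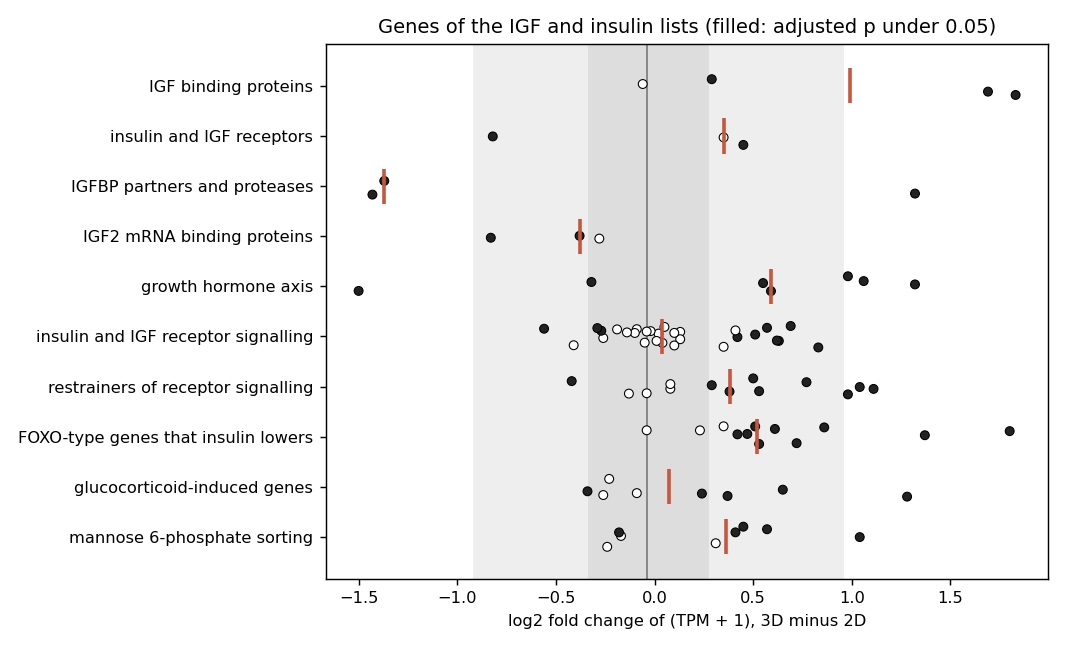
Log2 fold change of TPM + 1 (3D minus 2D) of every tested gene of each list, with filled points for an adjusted p-value under 0.05 and a red bar for the median of the list. The grey line and bands mark the median (-0.04), the middle range from the 25th to the 75th percentile (-0.33 to 0.27) and the range from the 5th to the 95th percentile (-0.92 to 0.96) of all tested genes. Restrainers, FOXO-type and receptor signalling genes have medians of 0.38, 0.52 and 0.04, and the bar of the binding proteins (0.99) rests on 4 of 7 genes and was 0.22 over all 7 with no filter, 0.29 with a mean of at least 5 TPM and 0.51 with 5 added.

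Igf2 and Igf2r are imprinted in mouse, and their noncoding partners were compared. H19, which shares enhancers with Igf2, lay between 0 and 0.193 TPM. Airn, the antisense RNA that silences the paternal Igf2r allele and overlaps Igf2r, was at 8.32 and 11 TPM in 2D and at 10.1 and 14.2 TPM in 3D. These ranges overlapped, and its log2 fold change of 0.30 (95% interval -0.23 to 0.84) did not pass the test (adjusted p = 0.274, limma). Airn and Igf2r were of like abundance, with 1.02 to 1.53 Igf2r transcripts per Airn transcript. The transporter genes Slc22a2 and Slc22a3 beside Igf2r were at most 0.0952 and 0.121 TPM, and Igf2os at most 0.0254 TPM.

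Because the study was concerned with genome structure, the nearest tested genes on either side were also compared. Igfbp4 lies 17054 bases from Top2a, a topoisomerase of dividing cells that fell from 459 and 465 TPM to 299 TPM in both 3D libraries (log2 fold change -0.63, adjusted p = 0.000494, limma). On its other side, 154654 bases away, Smarce1 was at 106 and 112 TPM in 2D and 104 and 105 TPM in 3D. It did not pass (adjusted p = 0.306, limma). Igfbp6 lies 1014 bases from Soat2, which was at 26.2 and 26.7 TPM in 2D and at 29.7 and 25.8 TPM in 3D (adjusted p = 0.560, limma). The other neighbour of Igfbp6, Spryd3, was higher in 3D by 0.36 on the log2 scale (adjusted p = 0.0111, limma). The nearest tested genes to Igf1r lie far from it, Ttc23 at 189914 and Nr2f2 at 2118275 bases. They had log2 fold changes of -0.12 and -0.24 and did not pass (adjusted p = 0.287 and 0.0717, limma). None of these neighbours changed by more than 1 on the log2 scale.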

How the data were processed

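RNA-seq libraries were prepared from polyadenylated RNA with a stranded kit. According to the labels and methods, reads were trimmed (cutadapt 1.8.3, Trimmomatic 0.36), aligned to GRCm38 by strand (HISAT2 2.0.5) and quantified on Ensembl release 93 genes with StringTie 1.3.4. The authors deposited a TPM value for each gene and library. The columns of their DESeq2 fold changes and p-values were not used. Depth is unknown, so no counting interval was given.

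Genes with a mean of at least 1 TPM were compared after taking log2(TPM + 1), using limma 3.58.1 (R 4.3.3, eBayes with trend and robust variance), culture as the only factor, two-sided, with Benjamini-Hochberg adjustment over 14116 genes. The script was first tested on simulated data. Nothing in the labels says that libraries of a culture came from separate cultures, so p-values measure the spread between these libraries. The genes and lists were chosen with earlier results of these data known. Named genes were the 10 genes, all genes of the short lists, and from other lists up to 3 with the highest mean and up to 4 past the threshold with the largest change, plus nearest tested neighbours. Akt2, Pik3cb, Ghr, Foxo1, Foxo3, Pik3ip1, Pck1 and G6pc fell outside this rule and were picked after their values were seen, as were the motifs after the sequences. Promoter windows came from RefSeq (GRCm38.p6), which held all 10 genes. Positions equalled those of GENCODE M21. Alternatives were other pseudocounts, filters and scalings, a replicate block, a constant prior variance and each library left out. Tables and figures used Python 3.11.15 and matplotlib 3.10.9. A gene of the lists is not reported here.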

Additional observations from a re-analysis of the deposited data

How the results depend on the processing

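The 6 tested genes kept their direction in all 77 alternative fits that gave a value, and their side of the threshold in 76. The exception was Igf2r without 3D replicate 1 (0.40, adjusted p 0.0753), so that 4 or 5 of the genes passed in every alternative. With a mean of at least 5 TPM, Igfbp6 was not tested. Log2 fold changes ranged from 1.60 to 1.79 for Igfbp4, 0.26 to 0.32 for Igfbp7, -0.89 to -0.73 for Igf1r and -0.10 to -0.02 for Igfbp3. Insr passed with a mean of at least 5 TPM, centred on the median, with quantile normalization and rescaled without mitochondrial and the 20 highest genes (adjusted p 0.0491, 0.0371, 0.0407 and 0.0418), and over all alternatives its highest adjusted p-value was 0.193. Same-numbered libraries did not deviate together (correlation -0.0549 across 14116 genes). With 2 libraries per culture, this cannot show whether they had a common origin. With the replicate block 5 of the genes and 6248 of all genes passed.

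Over all genes, 4720 to 5954 passed when a library was left out, against 7122, since fewer libraries were fitted. In those fits 2 to 5 mannose 6-phosphate sorting genes, 1 or 2 receptors, 3 to 7 glucocorticoid-induced genes and 5 to 7 restrainers passed. The sorting count was 3 with no filter, centred on the median, with quantile normalization and with a constant prior variance. The cause was not tested. Without Igfbp7 in the sum the shares of Igfbp4, Igfbp3 and Igfbp6 differed between cultures by 7.89, -8.30 and 0.388 percentage points, by construction, and with 1 library left out those of Igfbp4 differed by 16 to 20, of Igfbp7 by -19.4 to -15.3, of Igfbp3 by -0.925 to -0.845 and of Igfbp6 by 0.143 to 0.192 points. Of 594 values of 46 named genes 562 were on the same side in the same direction. The 5 reversed ones were those of genes not past the threshold, namely Akt1 with quantile normalization (0.02) and rescaled (0.00), and, with 1 library left out, Akt1 (-0.06 to 0.01), Irs2 (-0.08 to 0.00) and Gga1 (-0.35 to 0.01). With 2 libraries per culture and unknown depth, levels below 1 TPM cannot be ranked.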
